A study of Mus musculus with 2 samples.

Results

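The genes described here were 7 genes of cholesterol synthesis and its control: *Hmgcs1*, *Idi1*, *Fdft1*, *Sqle* and *Lss*, which encode enzymes, and *Srebf2* and *Insig1*, which encode regulators of those enzymes. They were taken by name, with all of their probes on both arrays, and no receptor gene is among them. The rule uses no measured value, but the genes were chosen with earlier results of these data known. They are 7 of the 37074 gene names on the array and 7 of the 20165 gene names detected on at least 1 array. They were covered by 13 probes, of which 11 were well above background, and these 11 were well above background on both arrays. RNA came from primary mouse hepatocytes of 2 genotypes on the C57BL/6 strain, harvested 24 h after seeding, with 1 array per genotype. Control cells were labelled wild type; the study's methods describe the control as *Drp1*flox/flox littermates, which carry the floxed *Drp1* alleles but no Cre. *Drp1*LiKO cells came from Alb-CreTg/+ *Drp1*flox/flox mice, in which Cre driven by the albumin promoter deletes *Drp1*, a GTPase of mitochondrial fission, in hepatocytes. Neither the age of these mice nor the number of mice behind each culture is stated, and no treatment other than culture is named for these cells.

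Hepatocytes make cholesterol from acetyl-CoA through mevalonate, squalene and lanosterol. The transcription factor SREBP2, the product of *Srebf2*, is made as a precursor in the endoplasmic reticulum membrane. When sterols are plentiful, INSIG proteins hold it there together with its escort SCAP. When sterols run low, the pair moves to the Golgi apparatus, where proteases free the part of SREBP2 that enters the nucleus and switches on the genes of the pathway, its own gene and *Insig1* among them.

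The promoters are shown because SREBP2 acts through short sites in them, called sterol regulatory elements, beside sites for the factors NF-Y and Sp1. Of the 7 genes, 5 matched the RefSeq promoter table by symbol, in the build GRCm38.p6. The windows printed are the 250 bases before the transcription start of *Hmgcs1* (chr13:119690101-119690350, plus strand), *Srebf2* (chr15:82147019-82147268, plus strand) and *Insig1* (chr5:28071162-28071411, plus strand), 5′ to 3′. Capitals mark the sterol regulatory element letters TCACCCCA with the extra base of TCACNCCAC where it matched, the CCAAT box, which reads ATTGG on the opposite strand, and the E-box CACGTG.
Hmgcs1: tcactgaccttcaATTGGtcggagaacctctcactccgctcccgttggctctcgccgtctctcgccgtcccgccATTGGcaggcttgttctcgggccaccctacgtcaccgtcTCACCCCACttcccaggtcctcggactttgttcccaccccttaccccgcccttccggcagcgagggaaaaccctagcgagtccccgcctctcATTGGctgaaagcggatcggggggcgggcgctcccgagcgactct
Srebf2: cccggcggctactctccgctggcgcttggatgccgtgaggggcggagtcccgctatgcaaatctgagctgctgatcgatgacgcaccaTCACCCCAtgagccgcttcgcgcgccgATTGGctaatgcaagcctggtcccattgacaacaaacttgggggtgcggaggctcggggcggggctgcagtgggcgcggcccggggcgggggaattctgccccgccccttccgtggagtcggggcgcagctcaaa
Insig1: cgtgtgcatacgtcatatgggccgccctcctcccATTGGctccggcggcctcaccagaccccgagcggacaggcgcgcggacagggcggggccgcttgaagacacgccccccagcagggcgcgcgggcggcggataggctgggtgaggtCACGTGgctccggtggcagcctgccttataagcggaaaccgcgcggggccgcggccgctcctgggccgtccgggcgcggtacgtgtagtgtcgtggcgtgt

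The letters TCACCCCA stood in *Hmgcs1*, from 137 to 130 bases before the start, and in *Srebf2*, from 162 to 155 bases before it, and on either strand in 1.34% of the 32851 promoters of the table. TCACNCCAC, which overlaps the first motif, stood in *Hmgcs1* only among the 5, and in 1.05% of all promoters. All 5 windows held CCAAT, as did 33.8% of all promoters, and all 5 held the Sp1 letters GGGCGG, not capitalised here, as did 32.7%. *Hmgcs1* held CCAAT at 3 places and *Idi1* (chr13:8885356-8885605) at 2, the nearest of them from 14 to 10 bases before the start. *Lss* (chr10:76531355-76531604) held it at 1 place, from 62 to 58 bases before the start. The E-box stood in *Insig1*, from 101 to 96 bases before the start, and in 6.02% of all promoters. These matches describe letters in the windows; no binding was measured.

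In *Drp1*LiKO cells, 6 of the 7 genes had a higher signal than in control cells and 1, *Srebf2*, had a lower signal by its brightest probe. The log2 ratio (*Drp1*LiKO minus control, after each array was scaled to its 75th percentile) was highest for *Insig1*, at 0.69, and lowest for *Srebf2*, at -0.57, with a median of 0.33 over the 7 genes. Over all 20165 detected genes the median was -0.05, and 44.5% of them had a ratio above 0. The 5 enzymes were all higher, by 1.23-fold to 1.52-fold. The signals of the 7 genes, before scaling between arrays, summed to 26263 in control cells against 38599 in *Drp1*LiKO cells. Since no genotype had a replicate, no test was made, and each difference is one between these 2 arrays. The error given with each signal is that of the Feature Extraction error model for the spot, and the SD given with each ratio is the spread expected between spots of that brightness, from 300 probes printed 10 times on each array. Neither holds any difference between cultures or mice.

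The plot of signals by probe places both arrays side by side.

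**Figure D1:**
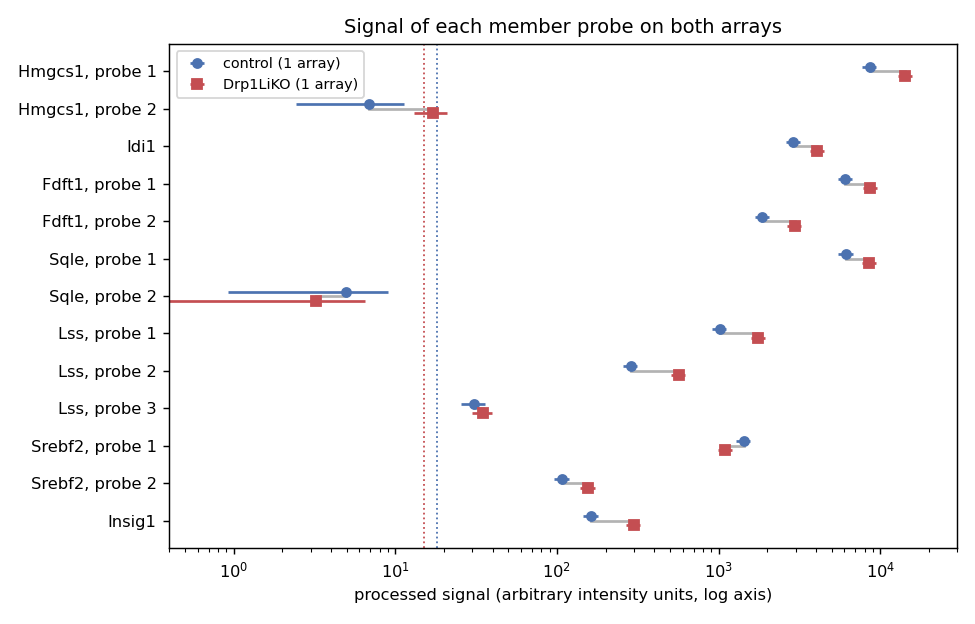
Processed signal (x axis, arbitrary intensity units, log scale) of each of the 13 probes (y axis) on the control array (circles) and the *Drp1*LiKO array (squares), 1 array each. Horizontal bars are ± the error of the Feature Extraction error model, the lower bar of the dim *Sqle* probe runs off the axis, and dotted lines mark the lowest signal well above background, 18.2 in control cells against 15.0 in *Drp1*LiKO cells. All detected probes except the brighter one of *Srebf2* lay further right in *Drp1*LiKO cells.

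*Hmgcs1* encodes the cytosolic synthase that joins acetyl-CoA and acetoacetyl-CoA to HMG-CoA, the precursor of mevalonate. Its detected probe (NM_145942, minus strand of mm9, 13_random from 114793 to 114852) read 8605 ± 861 in control cells against 14238 ± 1424 in *Drp1*LiKO cells. The scaled log2 ratio was 0.54 ± 0.0753 (SD between spots), or 1.46-fold, just short of 1.5-fold. Its ratio exceeded that of 88.8% of detected genes. Its second probe (AK078743, 13_random from 121437 to 121496) read 6.87 and 17.0, not well above background on either array, and gives no ratio.

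*Idi1* encodes the isomerase that interconverts the isoprene units isopentenyl diphosphate and dimethylallyl diphosphate. Its only probe (NM_145360, chromosome 13 of mm9, 8891524 to 8891583) read 2885 ± 288 in control cells against 4058 ± 406 in *Drp1*LiKO cells, which gives a log2 ratio of 0.31 ± 0.103 (SD between spots) or 1.24-fold. This was a smaller difference than that of *Hmgcs1*, and 80.8% of detected genes had a lower ratio.

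*Fdft1* encodes squalene synthase, the first enzyme committed to sterols. Both of its probes were detected and both were higher in *Drp1*LiKO cells. The brighter one (NM_010191, chromosome 14 of mm9, 63765457 to 63765516) read 6047 ± 605 in control cells against 8628 ± 863 in *Drp1*LiKO cells, with a log2 ratio of 0.33 ± 0.0849 or 1.26-fold. The other, whose target runs from 63765750 to 63769990 and so spans an intron, read 1857 ± 186 and 2958 ± 296, with a log2 ratio of 0.49 ± 0.106.

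*Sqle* encodes squalene epoxidase, a rate-limiting step of the sterol branch. Its detected probe (NM_009270, chromosome 15 of mm9, 59162688 to 59162747) read 6120 ± 612 in control cells against 8526 ± 853 in *Drp1*LiKO cells. The log2 ratio was 0.30 ± 0.0849, or 1.23-fold, the smallest difference among the 5 enzymes. The second probe (ENSMUST00000161953, 59157550 to 59157609) read 4.94 and 3.23, at background on both arrays.

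*Lss* encodes the cyclase that folds oxidosqualene into lanosterol, the first sterol of the pathway. Its brightest probe (NM_146006, chromosome 10 of mm9, 76016592 to 76016651) read 1014 ± 102 in control cells against 1755 ± 176 in *Drp1*LiKO cells, which gives a log2 ratio of 0.61 ± 0.106 or 1.52-fold. The second probe (76015992 to 76016051) read 285 ± 28.9 and 565 ± 56.6, a log2 ratio of 0.80 ± 0.128. The probes of *Lss* did not all differ between the arrays: the third (76019513 to 76019572), near background at 30.6 ± 5.11 and 34.8 ± 4.82, had a log2 ratio of 0.00 with an SD between spots of 0.336.

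*Insig1* encodes the membrane protein that retains the SREBP precursor and is itself a target of SREBP. Its only probe (NM_153526, chromosome 5 of mm9, 28404246 to 28404305) read 162 ± 16.8 in control cells against 298 ± 30.0 in *Drp1*LiKO cells. The log2 ratio was 0.69 ± 0.137 (SD between spots), or 1.62-fold, above that of 91.6% of detected genes. Its paralog *Insig2*, which holds SREBP in the same way, read 3122 in control cells against 3764 in *Drp1*LiKO cells. Its log2 ratio was 0.09, with -0.07 to 0.09 over its 3 probes. It turned negative with normexp background correction, to -0.03, and with the deposited normalized values, to -0.01.

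*Srebf2* gave opposite values at its 2 probes. The brighter one (ENSMUST00000023100, chromosome 15 of mm9, 82035495 to 82035554) read 1429 ± 143 in control cells against 1094 ± 109 in *Drp1*LiKO cells, which gives a log2 ratio of -0.57 ± 0.111 (SD between spots). The dimmer one (NM_033218, 82034765 to 82034824) read 107.1 ± 11.5 and 156 ± 15.9, a log2 ratio of 0.36 ± 0.159. The brighter probe gave -0.44 and the dimmer one 1.11 in the deposited normalized values, again opposite in sign. The probes start 730 bases apart and list the same transcript, ENSMUST00000023100, yet their ratios differed by 0.92, where the SD of that difference was 0.194 from the spread between spots and 0.296 from the error model. Counted as the median of both probes, the log2 ratio of *Srebf2* was -0.11, so its direction rests on which probe stands for the gene. *Srebf1*, the paralog whose products mostly drive fatty acid synthesis, read 5606 in control cells against 6852 in *Drp1*LiKO cells, which gives a log2 ratio of 0.11.

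The plot of ratios by probe shows how these differences compare with the error within an array. Of the 11 detected probes, 10 had a ratio above 0 and 1 below. The ratio exceeded 2 SD of the spread between spots at 10 probes and exceeded 2 SD of the error model at 6, which were those of *Hmgcs1* and *Insig1*, the dimmer of *Fdft1*, both brighter ones of *Lss* and the brighter of *Srebf2*. The error model gave an SD of the ratio from 0.204 to 0.313, larger than the spread between spots at all detected probes except the dimmest of *Lss*. None of the 13 probes was saturated or flagged as an outlier, and each was printed as 1 spot.

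**Figure D2:**
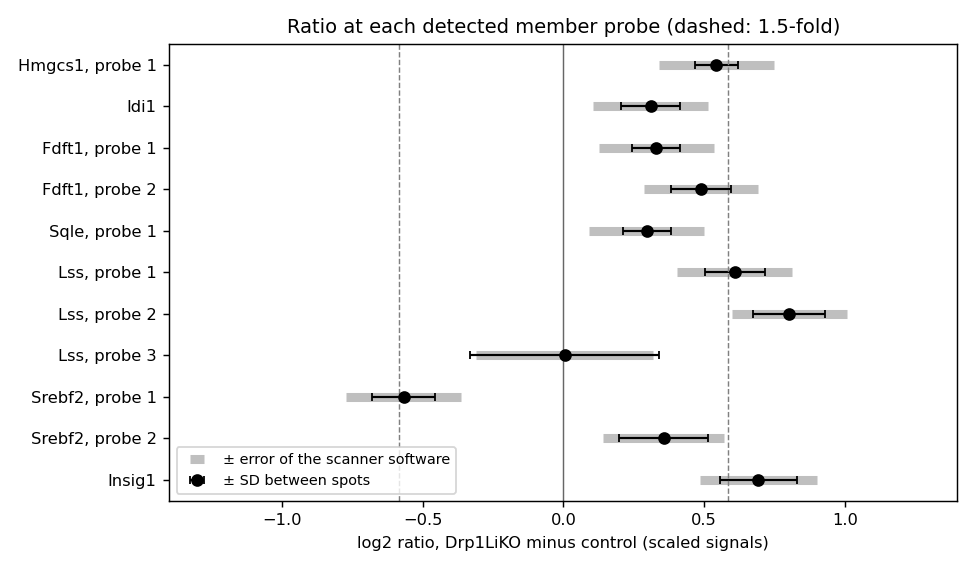
Log2 ratio (x axis, *Drp1*LiKO minus control, scaled signals) at each of the 11 detected probes (y axis). Black bars are ± 1 SD of the spread between spots, grey bars ± 1 SD of the Feature Extraction error model, and dashed lines mark 1.5-fold. All probes except the dimmest of *Lss*, at 0.00, and the brighter of *Srebf2*, at -0.57, lay above 0 by more than either bar.

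By the brightest probe, *Lss* and *Insig1* were higher by at least 1.5-fold (2 of 7 genes), a size reached upward by 10.3% of all detected genes, 2078 of 20165. None of the 7 was lower by 1.5-fold, against 10.2% of all detected genes. None passed a Z score of 2, the threshold named by the study, in either direction, against 3.46% of detected genes upward and 2.76% downward. A Z score of 2 lay at a log2 ratio of 1.30, and the highest Z score among the 7, that of *Insig1*, was 1.07. The 10th and 90th percentiles of all detected genes lay at -0.59 and 0.60, a range that held 5 of the 7 genes, and the plot of all detected genes shows where each gene fell.

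**Figure D3:**
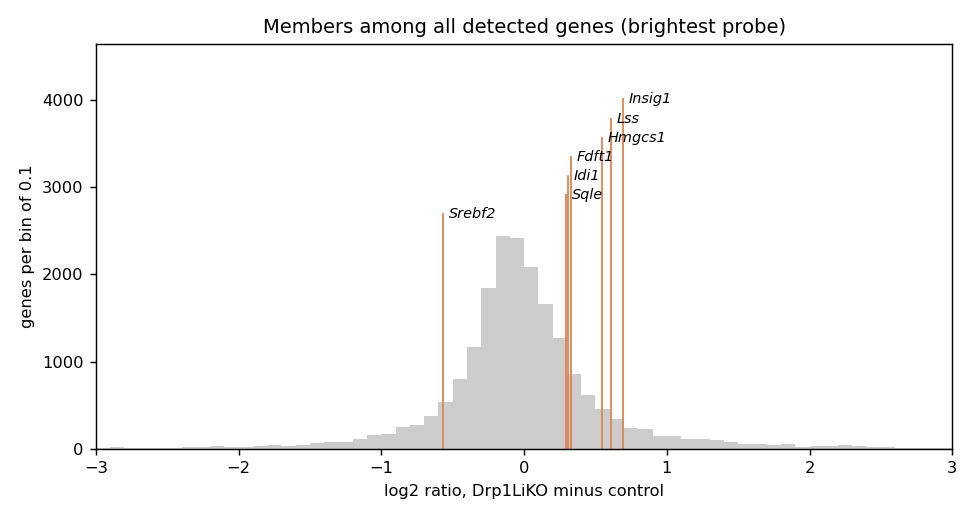
Number of detected genes (y axis) by log2 ratio (x axis, *Drp1*LiKO minus control, bins of 0.1), with a vertical line for each of the 7 genes at its ratio. The 6 higher genes lay between 0.30 and 0.69 on the right shoulder of the distribution and *Srebf2* at -0.57 on the left; line heights differ only to keep the names apart.

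The other enzymes of the pathway were read to see whether the values of the 5 enzymes described above extended along it. In the mevalonate and isoprenoid branch, 5 further enzymes were detected and all 5 had a ratio above 0, with a median of 0.44, and a sixth on the list, *Acat2*, was not analysed here. *Fdps*, the farnesyl diphosphate synthase, had the highest ratio, 0.53, with a signal of 17041 in control cells against 27857 in *Drp1*LiKO cells. *Mvd*, the decarboxylase of mevalonate diphosphate, read 286 and 440, a log2 ratio of 0.44. *Ggps1*, which leads away from sterols to geranylgeranyl groups, had the lowest ratio, 0.04, with 0.04 to 0.40 over its 6 probes.

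After lanosterol the values were mixed. Of 9 sterol enzymes, 3 had a ratio above 0 and 6 below, with a median of -0.04. *Msmo1*, the sterol methyl oxidase, had the highest ratio, 0.67, with a signal of 10651 in control cells against 19246 in *Drp1*LiKO cells and 0.52 to 1.03 over its 3 probes. *Lbr*, a sterol reductase of the inner nuclear membrane, had the lowest, -0.62, with 3146 and 2328. *Dhcr7*, which makes cholesterol from 7-dehydrocholesterol, read 447 and 332, a log2 ratio of -0.61. *Cyp51*, the lanosterol demethylase, and *Nsdhl*, the next dehydrogenase, lay at 0.07 and -0.04, and both, like *Sc5d* at -0.00, changed sign under at least 1 other way of processing. Over all 19 enzymes read here, *Ggps1* of the side branch included, 13 were above 0 and 6 below. By at least 1.5-fold 2 were higher and 2 lower, against 10.3% higher and 10.2% lower among all detected genes. The 2 lower calls, *Lbr* and *Dhcr7*, lay just past that size and ended with spike-in scaling, at -0.58 and -0.57, and with normexp correction, at -0.58 and -0.53. With the deposited normalized values *Lbr* was -0.73 and *Dhcr7* -0.14. Both calls stayed in the other alternatives that give a ratio. The 5 member enzymes ranged from 0.30 to 0.61 with a median of 0.33, and the 14 other enzymes from -0.62 to 0.67 with a median of 0.05. Those 14 join the 5 mevalonate and isoprenoid enzymes, with a median of 0.44, and the 9 after lanosterol, with -0.04.

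**Figure D4:**
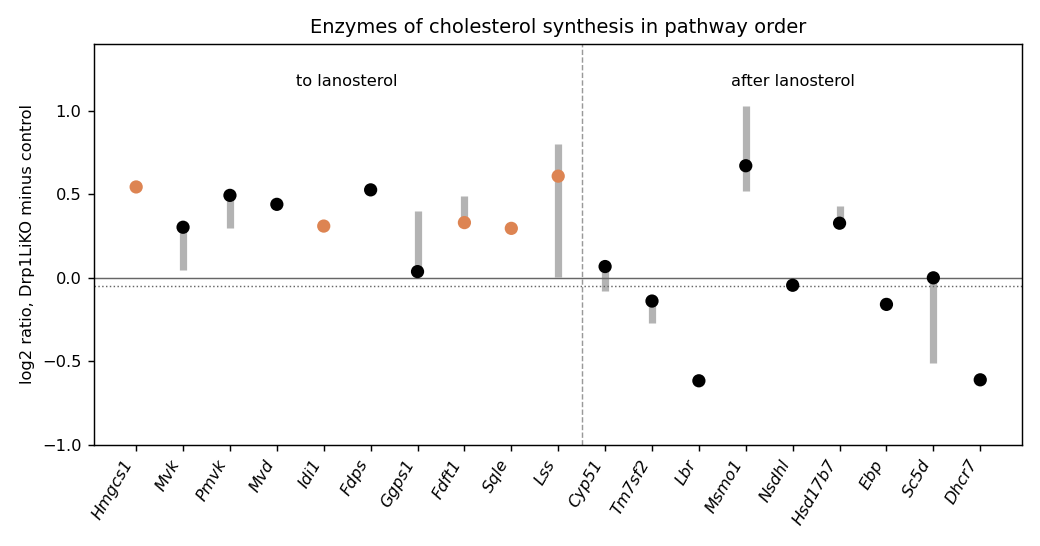
Log2 ratio (y axis, *Drp1*LiKO minus control) of 19 enzymes in pathway order (x axis). They are enzymes of cholesterol synthesis and *Ggps1*, which leads away from it. Points are the brightest probe and grey bars the range over the detected probes of a gene. Orange points are *Hmgcs1*, *Idi1*, *Fdft1*, *Sqle* and *Lss*, and the dotted line is the median of all detected genes, -0.05. All 10 enzymes drawn before the lanosterol line lay above 0 by their brightest probe, *Ggps1* of the side branch the lowest at 0.04. Of the 9 after it, 3 lay above 0, with *Cyp51*, *Nsdhl* and *Sc5d* changing sign under other ways of processing.

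Among 10 genes that move, cleave or degrade proteins of the SREBP pathway, 3 had a ratio above 0 and 7 below, with a median of -0.19 and none past 1.5-fold. *Scap*, the escort of SREBP, read 8584 in control cells against 8440 in *Drp1*LiKO cells, which gives a log2 ratio of -0.21. *Mbtps1*, the protease that makes the first cut in SREBP, had the lowest ratio, -0.54, and all of its 4 probes were below 0, from -0.78 to -0.38. *Mbtps2*, the protease of the second cut, had the highest, 0.13. The paralog *Idi2* was not well above background on either array.

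Among genes for the handling of sterols, 4 single genes, *Soat1*, *Abcg1*, *Ch25h* and *Mylip*, had larger ratios than any of the 7 genes, all of them at dim signals. With normexp background correction their log2 ratios were 0.59, 1.29, 1.59 and 0.20, so that *Soat1* and *Mylip* then lay below *Lss*, at 0.61. The 9 genes of sterol uptake, transport and esterification had a median of 0.00 with 5 above 0, and the 7 genes of the sterol receptor LXR and of sterol efflux had a median of -0.09 with 3 above 0. *Soat1*, which esterifies cholesterol, read 22.1 in control cells against 77.0 in *Drp1*LiKO cells, which gives a log2 ratio of 1.62, and its other probe 0.29. *Abcg1*, a cholesterol exporter, read 60.7 and 270, a log2 ratio of 1.97, whereas *Abca1*, another exporter, read 764 and 677, a log2 ratio of -0.36. *Mylip*, a ubiquitin ligase induced by LXR, was not well above background in control cells and read 37.3 in *Drp1*LiKO cells, at least 1.80-fold higher, a bound that holds for this floor on dim signals and this background correction. *Ch25h*, which makes 25-hydroxycholesterol, an oxysterol that binds INSIG proteins, read 25.1 and 224, a log2 ratio of 2.97. Of these, *Soat1*, *Abcg1* and *Ch25h* were the ones past a Z score of 2 in these lists and in the list of 5 detected oxysterol and bile acid hydroxylases, which had a median of 0.19. *Scarb1*, the scavenger receptor for high-density lipoprotein, had the lowest ratio of the uptake list, -0.27. *Stard4*, a carrier of cholesterol between membranes, lay at 0.10 and changed sign with the deposited normalized values, to -0.32. *Cyp7b1*, an oxysterol hydroxylase, lay at -0.20, and *Cyp7a1*, the rate-limiting enzyme of bile acid synthesis, was not well above background on either array.

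Of the marker lists, those of macrophages, endothelial cells, stellate cells, interferon-induced genes and dividing cells had medians further from 0 than any of the 7 genes. Those of hepatocytes and cholangiocytes did not. Of the hepatocyte markers, *Alb* (219613 in control cells against 266703 in *Drp1*LiKO cells) and *Serpinc1* (40096 and 61356) were the brightest. The log2 ratio of *Alb* ranged from -0.09 to 0.10 over its 2 probes and that of *Serpinc1* from -0.50 to 0.43. In all, 7 of 9 hepatocyte markers had a ratio above 0, with a median of 0.43, or 0.32 with normexp correction. Their summed signal was 352286 and 483159. Of 13 markers of Kupffer cells and macrophages, 12 were detected and all 12 had a ratio above 0, 10 of them past a Z score of 2. Their median was 2.42 and their summed signal 11113 in control cells against 28902 in *Drp1*LiKO cells, most of it from *Cd14* and *Cd68*; with normexp correction the median was 1.75. *Clec4f* and *Vsig4* were not well above background in control cells, and *Timd4* on neither array. All 8 endothelial markers, *Egfl7* and *Cdh5* the brightest, had a ratio above 0, with a median of 1.60, or 0.84 with normexp correction. Of 7 detected stellate cell markers, *Acta2* and *Dcn* the brightest, 6 were above 0, and 4 of the 7 ratios were bounds. Their median was 1.04, or 0.61 with normexp correction, then no further from 0 than *Lss*. The endothelial signal summed to 4123 and 8460, most of it from *Egfl7*, at 0.70. The stellate signal summed to 21815 and 29131, most of it from *Acta2*, at 0.02 to 2.20 over its 3 detected probes, whereas *Dcn* lay at 4.06. Cholangiocyte markers, *Spp1* and *Krt19* the brightest, were split, 2 above 0 and 2 below, with 29379 and 24885. All 7 genes of dividing cells, *Plk1* and *Mki67* the brightest, were below 0, with a median of -2.17 and a summed signal of 7942 and 2132. All 8 interferon-induced genes, *Irf7* and *Oas1a* the brightest, were above 0, with a median of 3.47, or 2.81 with normexp correction, and a summed signal of 13776 and 93416. The part of these cell types and states in the ratios of the 7 genes, of *Soat1*, *Abcg1* and *Ch25h* and of the other lists was not tested, and in bulk RNA a change in the number of cells of a type and a change in RNA per cell cannot be told apart.

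**Figure D5:**
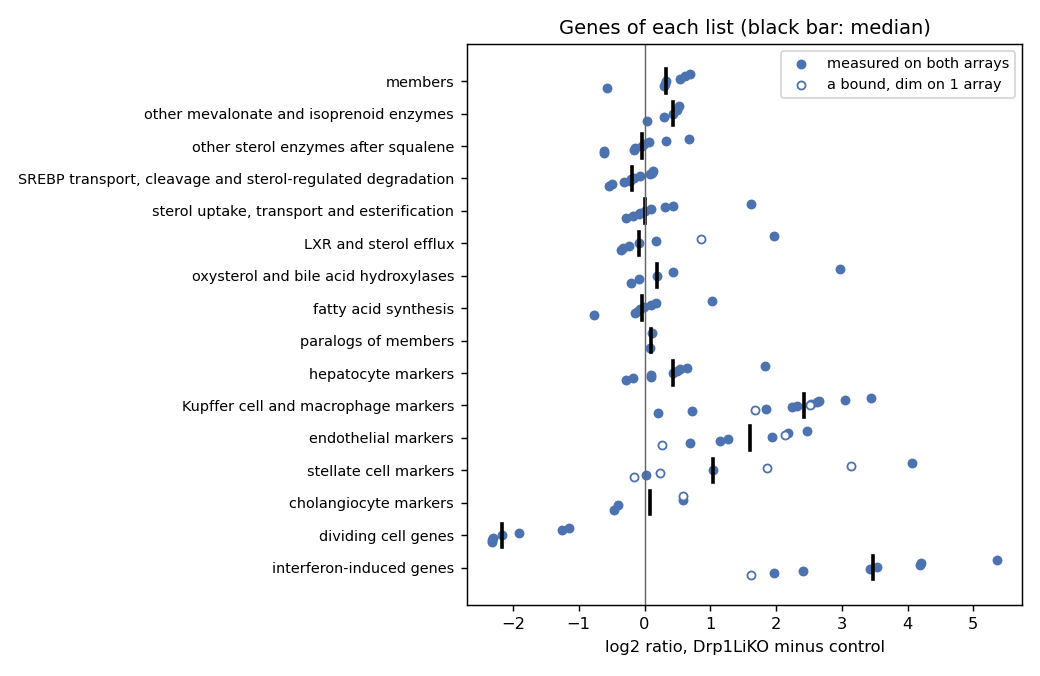
Log2 ratio (x axis, *Drp1*LiKO minus control) of every detected gene of each list (y axis); filled points were well above background on both arrays, open points on 1 array only, so that they are bounds, and black bars are list medians. The 7 genes, labelled members, had a median of 0.33, against 2.42 for macrophage markers, -2.17 for genes of dividing cells and 3.47 for interferon-induced genes. The median was 1.60 for endothelial, 1.04 for stellate cell and 0.43 for hepatocyte markers.

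The targeted gene, listed as *Dnm1l*, read 2602 in control cells against 1217 in *Drp1*LiKO cells at its bright probe, a log2 ratio of -1.28, and 22.8 and 20.9 at a probe near background. Both arrays were hybridized on 1 slide and read in 1 scan. Probes well above background made up 48.2% of 56605 on the control array and 52.1% on the *Drp1*LiKO array, and the scaling to the 75th percentile (signals of 313 and 356) took 0.18 off each log2 ratio, against 0.14 by the 7 spike-in probes.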

How the data were processed

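Total RNA was labeled in 1 color and hybridized to a 60-mer Agilent mouse array, 1 array per genotype. The authors deposited the Feature Extraction output of each array, whose processed signals are linear intensities corrected for background within the array and not normalized between arrays. They also deposited normalized intensities, by a method not given in the sources used here. The control column of that table ordered probes as the control array did (rank correlation 1.00), the *Drp1*LiKO column less closely (0.958), so it served as an alternative. The file headers name Feature Extraction 10.7.1.1, the submitters' processing notes 9.5.1.1.

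Control spots and outlier spots were left out (5 probes lost every spot), log2 signals were averaged per probe and each array's 75th percentile was subtracted. The 30275 probes kept had most of their spots well above background on 1 array or both. A dim signal was set to the lowest one well above background on its array, and a ratio so formed is a bound. A gene was its brightest probe. The Z score was a ratio minus the mean of the kept probes, over their SD of 0.65. No test was run, for want of replicates.

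The 7 genes, the gene lists, the motifs and the rule for named genes were chosen with earlier results of these data known. The rule took *Dnm1l*, every probe of the 7 genes, their paralogs, *Cyp51*, *Nsdhl*, *Dhcr7*, *Fdps*, *Mvd*, *Scap*, *Stard4*, *Ch25h*, *Abca1* and *Abcg1*, then in each sterol list the highest, the lowest and all past a Z score of 2, and in the other lists the 2 brightest genes. *Clec4f*, *Vsig4*, *Timd4*, *Tek*, *Stab2*, *Acat2*, *Mylip*, *Cyp7a1*, *Sc5d*, *Scd1* and *Thrsp* were named after their values were seen. The values of 2 genes of the lists are not reported here. Gene names and mm9 coordinates are those of the array files; whether a probe lies in a coding exon was not analysed here. Promoters came from RefSeq, GRCm38.p6. The procedure was also tested on simulated data: in the comparison of a simulated *Drp1*LiKO array with the control array over 18358 genes, 200 of 200 changed genes passed 1.5-fold. All changes set there were larger than 1.5-fold and in genes bright on the control array. The simulation therefore says nothing of smaller changes, such as those of most of the 7 genes, or of dim probes. Alternatives were quantile normalization, normexp with an offset of 50, scaling to probes well above background or to spike-in probes, the deposited normalized values, outlier spots kept, no floor, both or no filter on dim probes, the median of a gene's probes and a robust Z score. Normexp correction was run in R 4.3.3 (limma 3.58.1) and the other steps in Python 3.11.15 (pandas 2.3.3, numpy 2.4.6, matplotlib 3.10.9).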

Additional observations from a re-analysis of the deposited data

How the results depend on the processing

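The median log2 ratio of the 7 genes lay between 0.32 with quantile normalization and 0.42 with the deposited normalized values (main value 0.33). None of the 7 changed sign in the 10 alternatives that give a ratio: *Insig1* ranged from 0.50 with normexp correction to 1.00 with the deposited values, *Srebf2* from -0.57 to -0.11 with the median of its probes, and *Fdft1* from 0.32 to 0.62. All of these except the median of a gene's probes used the brightest probe. For *Srebf2* they could therefore not show the opposite sign of its dimmer probe. With normexp correction 1 of the 7 genes, not 2, was higher by 1.5-fold, and over all genes 1144 were higher and 1140 lower (main 2078 and 2061). With the deposited values 3 of the 7 were higher, and over all genes calls rose as well, to 2506 higher and 2694 lower. With a robust Z score 1 of the 7 genes, not 0, was past 2 upward, and over all genes 1715 were higher and 1435 lower (main 697 and 557). Without a filter on dim probes 1345 genes were higher by Z score, and the median of the oxysterol list was 0.048 (main 0.19). The median of all genes was then -0.47, the ratio that the floor gives to any probe below it on both arrays. It therefore describes undetected genes, and the mean and SD behind the Z scores then included such probes. With the deposited values the median was 0.32 for the mevalonate list (main 0.44), 0.38 for the oxysterol list and 0.12 for fatty acid synthesis (main -0.04). The cause of these shifts with the deposited values was not tested. Of 115 genes of the lists, 14 had another sign in at least 1 alternative. No paired analysis was possible because each genotype had 1 array, and no array could be left out. Dim probes, such as the third of *Lss* and the second of *Srebf2*, carry the largest errors.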

Other observations

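The genes of fatty acid synthesis, which SREBP1 rather than SREBP2 mainly drives, were spread around 0. Of 8 genes detected, 3 had a log2 ratio above 0 and 5 below, with a median of -0.04 that became 0.12 with the deposited normalized values and 0.0049 with spike-in scaling. *Acly*, which supplies cytosolic acetyl-CoA to both pathways, and *Fasn*, the fatty acid synthase, were the brightest, at -0.01 and 0.18, and *Acly* changed sign in 4 alternatives. *Thrsp*, a lipogenic gene of hepatocytes, was the highest of this list at 1.02, with a signal of 794 in control cells against 1830 in *Drp1*LiKO cells. *Scd1*, the stearoyl-CoA desaturase, was the lowest at -0.76, with 16436 and 10997. Neither passed a Z score of 2.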
